A study of Mus musculus with 4 samples.

Results

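The genes described here encode the endosomal sorting complexes required for transport (ESCRT) and the adaptors that hand ubiquitinated cargo to them. They were chosen by name, from known subunits of ESCRT-I, ESCRT-II and ESCRT-III, the ATPase VPS4 with its cofactor, the ALIX family, and the TOM1, TOLLIP and GGA adaptors. The list holds 32 genes under 35 names, since Mvb12a, Mvb12b and Chmp3 are also listed under older symbols (Fam125a, Fam125b and Vps24), which the array design uses. All 32 had at least 1 probe on the array, 59 probes in all, out of 28482 genes or other names that the array covers. Of the 32, 30 had a probe that the scanner software flagged as well above background in both samples of 1 genotype or the other; these are called measured, and such probes kept.

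The study compared sorted thymocytes of the double-positive (DP) stage, which carry the coreceptors CD4 and CD8 together, from mice of 2 genotypes. USP8ff_CD4Cre mice carried loxP-flanked Usp8 alleles and Cre driven by Cd4 regulatory sequences. USP8ff mice carried the same flanked alleles without Cre. All mice were untreated, sex-matched littermates of 6 to 12 weeks. Each genotype had 2 samples, each sample pooled 2 mice (8 mice in all), and each was hybridised to its own 1-colour Agilent array. No group carried Cre without the flanked alleles, so an effect of Cre and an effect of the deletion cannot be told apart. The p-values and intervals rest on the spread between 2 pools per genotype, which limma moderated with the spread of all genes. This small number of arrays limits the precision.

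ESCRT complexes act in sequence on the endosome. ESCRT-0 gathers ubiquitinated membrane proteins, ESCRT-I and ESCRT-II shape the bud, ESCRT-III filaments cut its neck, and VPS4 takes the filaments apart, so that receptors end up in multivesicular bodies and are degraded in lysosomes. USP8 is a deubiquitinase that binds the ESCRT-0 subunits STAM and STAM2 and, through its MIT domain, ESCRT-III proteins, and it removes ubiquitin from cargo and from the sorting machinery.

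Values are log2 signals, from each of which the 75th percentile of its array was subtracted, and a difference is the mean of USP8ff_CD4Cre minus the mean of USP8ff on that scale. Each gene is read from its kept probe with the highest mean signal. Signals of different probes are not set against each other, because probes differ in how brightly they report the same amount of RNA.

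Usp8 itself had log2 signals of -1.03 and -1.23 in USP8ff_CD4Cre, against -0.23 and -0.40 in USP8ff. Both USP8ff_CD4Cre pools lay below both USP8ff pools, with a difference of -0.81 (95% interval -1.15 to -0.48; limma, unadjusted p = 0.0015, adjusted p = 0.60 over all genes). The labels do not say which part of Usp8 is flanked, so the probe (mm9, chromosome 2, 126584363 to 126584422) reports the level of the transcript and not the deletion as such. In a bulk sample, fewer cells that express a gene and less RNA per cell cannot be told apart.

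Differences between the genotypes in ESCRT transcripts were small, under 0.25 in either direction for 28 of the 30 measured members (93.3%, beside 80.1% of all genes). Among the 30 measured members, 16 differences were positive and 14 negative, with a median of 0.032, beside a median of 0.021 over all 13062 genes measured. The sign of the members' median was not stable, as it was -0.010 with quantile normalization and -0.036 without USP8ff_CD4Cre replicate 2. The typical size of a difference, ignoring its sign, was 0.087 among the members and 0.118 over all genes, while the median spread between pools of 1 genotype was 0.077 (SD) among the members and 0.122 over all genes. No member passed an adjusted p of 0.05 in limma, where 0 of 13062 genes did (0%), and the smallest adjusted p was 0.66 among the members and 0.29 over all genes. At an unadjusted p under 0.05, 1 member was higher in USP8ff_CD4Cre and 0 were lower, while over all genes 7.43% passed, 3.97% higher and 3.46% lower. That member was the GGA adaptor gene Gga2, with a difference of 0.41.

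The fit also bounds the difference in signal of the 1 probe read for each gene, and other probes of a gene could differ from it, as given below. With every kept probe fitted singly, all 47 member probes had a 95% interval inside a 2-fold change. For all 30 members the 95% interval of the difference lay inside a 2-fold change in either direction, the lowest bound being -0.58 and the highest 0.73. Each interval covers 1 gene at a time, and its width also reflects the spread borrowed from all genes. Chmp2b, for example, had a spread between pools of 0.015 (SD) and an SE of 0.10. Intervals this narrow were common on these arrays, since 93.7% of all genes had one, so they do not set the members apart. The 2 arrays of USP8ff_CD4Cre lay wholly above those of USP8ff for 9 members and wholly below for 4, 13 in all, beside 24.3%, 16.3% and 40.6% of all genes.

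**Figure D1:**
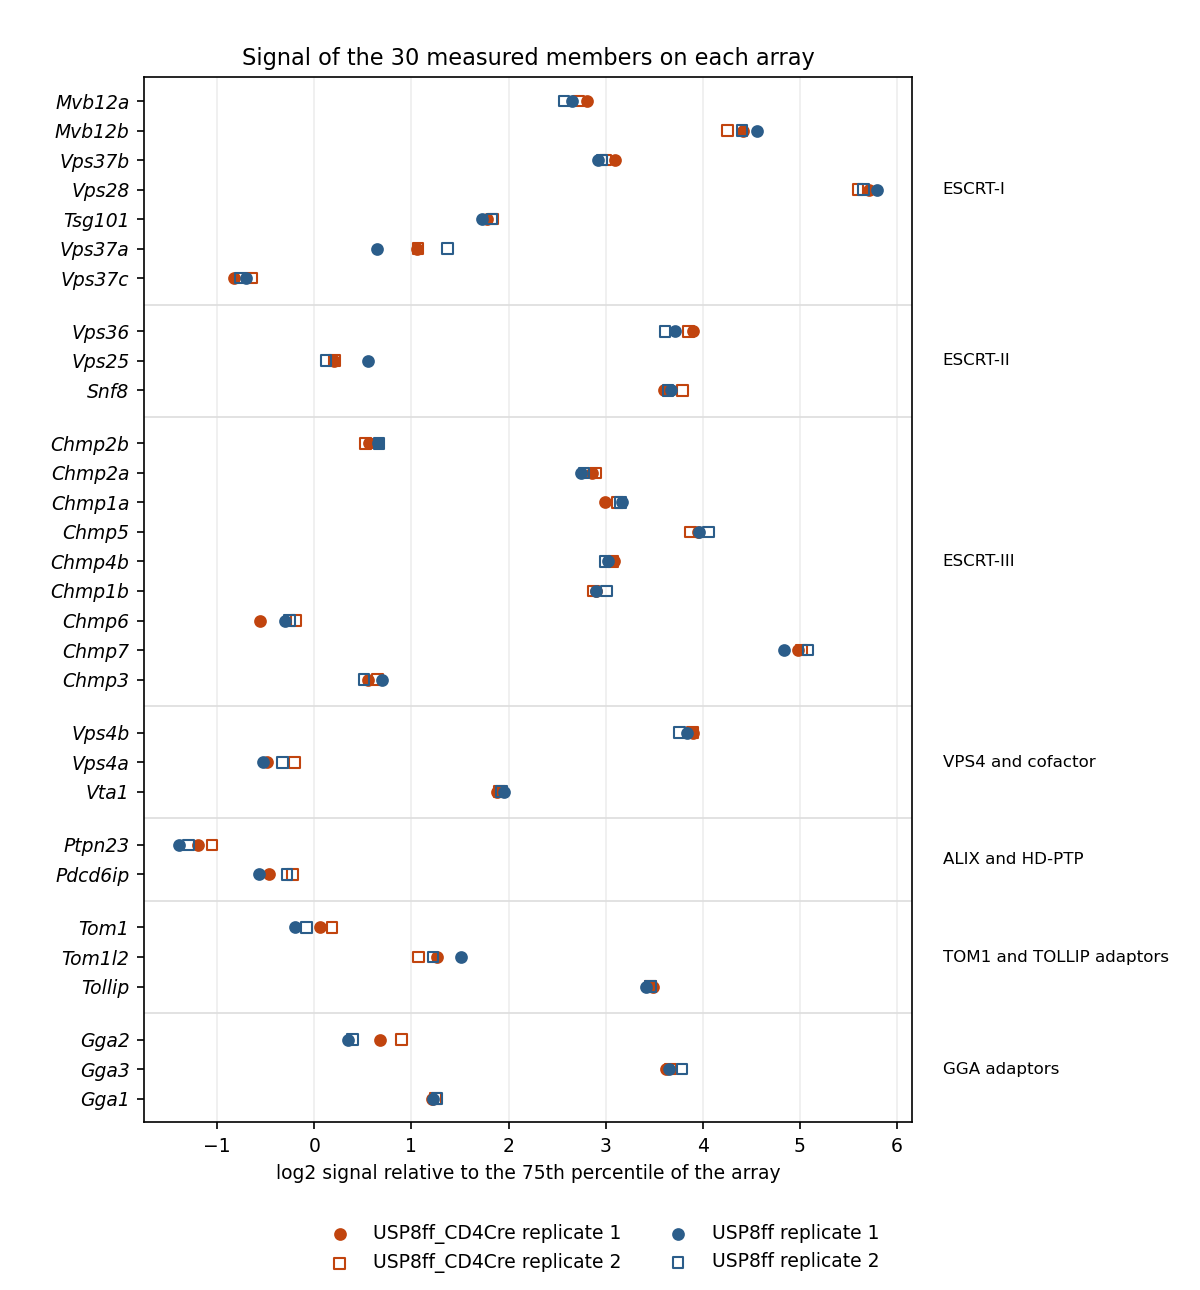
Log2 signal of the 30 measured members on each of the 4 arrays, after subtraction of the array's 75th percentile. Each row is a gene, each symbol an array (orange, USP8ff_CD4Cre; blue, USP8ff; filled circle, replicate 1; open square, replicate 2). The 4 symbols of most genes nearly coincide; the widest rows are Vps37a, where USP8ff replicates 1 and 2 lie at 0.64 and 1.37, and Gga2, where the orange symbols lie right of the blue ones. Positions of different genes are not comparable, as each row is another probe.

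**Figure D2:**
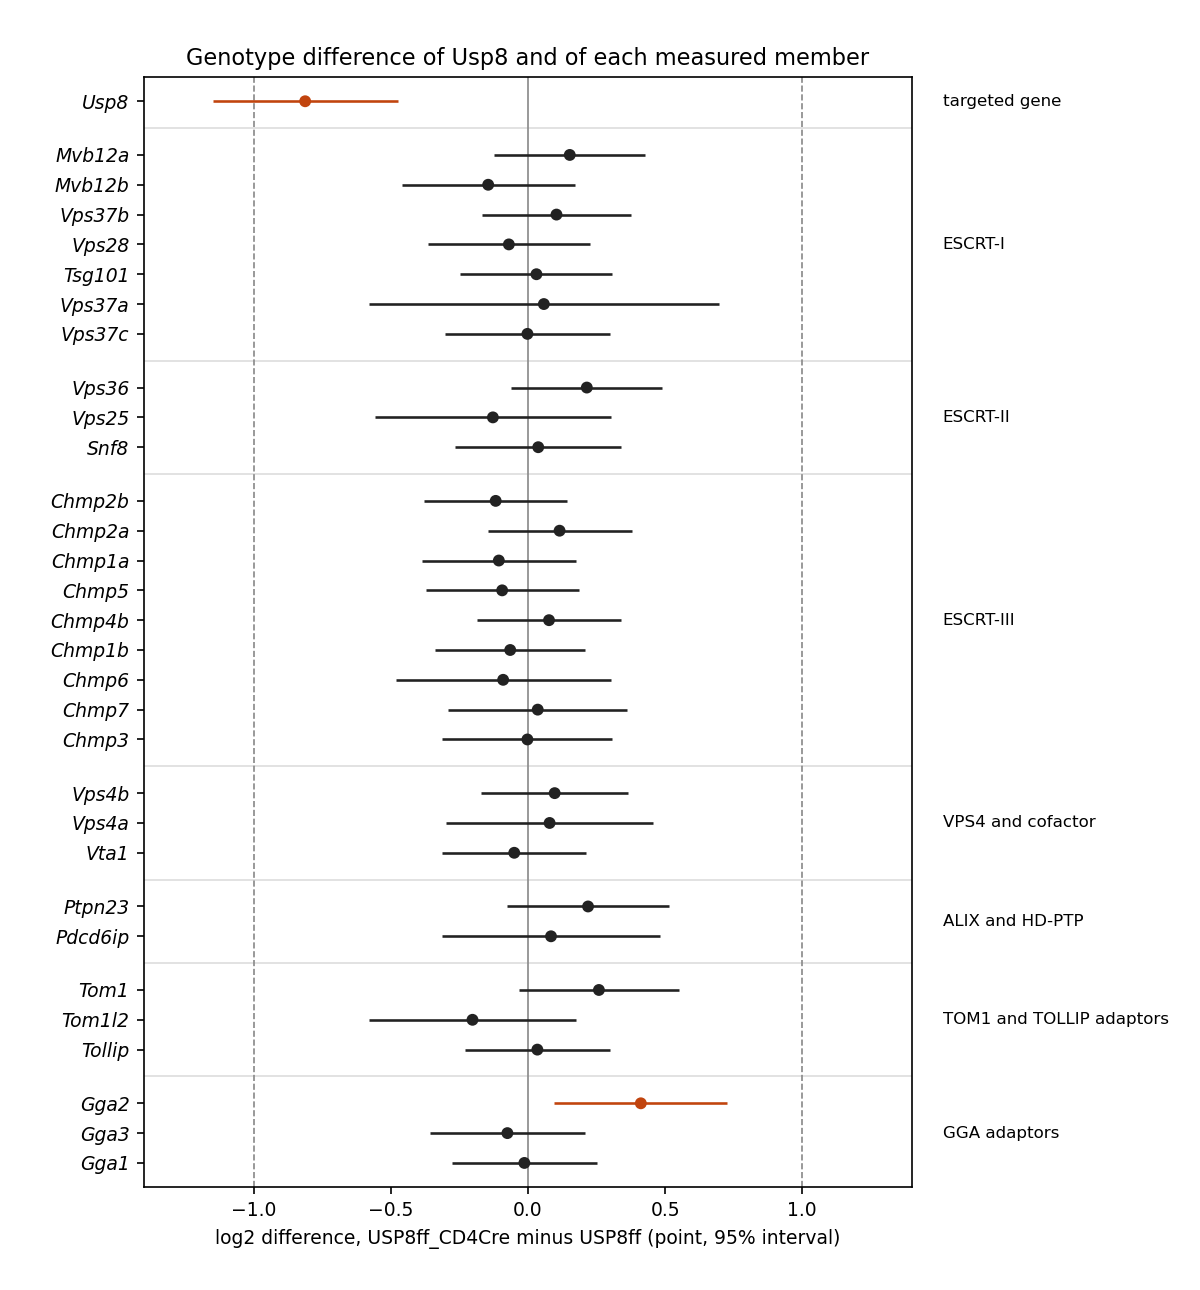
Log2 difference, USP8ff_CD4Cre minus USP8ff, for Usp8 and each measured member, with the 95% interval of the limma fit as a bar. Dashed lines mark a 2-fold change. Orange bars do not include 0: Usp8 at -0.81 and Gga2 at 0.41. Every member's bar ends inside the dashed lines.

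ESCRT-I is the complex that first takes ubiquitinated cargo from ESCRT-0. Its core subunit gene Tsg101, whose product binds ubiquitin, had log2 signals of 1.78 and 1.84 in USP8ff_CD4Cre, against 1.73 and 1.83 in USP8ff. These overlap, and the difference was 0.031 (95% interval -0.25 to 0.31; limma, unadjusted p = 0.79). Vps28, the subunit that links ESCRT-I to ESCRT-II, had a difference of -0.070 (-0.37 to 0.23).

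The remaining ESCRT-I subunits are alternatives or accessories, and they gave the largest and the smallest differences of this complex. Mvb12a had 2.80 and 2.72 in USP8ff_CD4Cre, against 2.65 and 2.57 in USP8ff. The groups did not overlap, and the difference was 0.15 (-0.12 to 0.43; limma, unadjusted p = 0.22). Its paralogue Mvb12b had 4.42 and 4.26 in USP8ff_CD4Cre, against 4.56 and 4.40 in USP8ff, which overlap, and a difference of the opposite sign, -0.15 (-0.46 to 0.17; limma, unadjusted p = 0.29). Of the VPS37 subunits, which occupy the same place in alternative complexes, Vps37b had a difference of 0.10 with groups that did not overlap, and Vps37c had -0.0021. Vps37a had 1.06 and 1.07 in USP8ff_CD4Cre, against 0.64 and 1.37 in USP8ff. The USP8ff arrays enclose both USP8ff_CD4Cre arrays, and the difference of 0.058 (-0.58 to 0.70; limma, unadjusted p = 0.83) was set by which USP8ff array is used. Without USP8ff replicate 1 it was -0.31 (limma, unadjusted p = 0.074), and without USP8ff replicate 2 it was 0.42 (limma, unadjusted p = 0.029).

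ESCRT-II bridges ESCRT-I to ESCRT-III. Each of its 3 subunits was read by a 60-base probe that covers a longer stretch of genome and so crosses an exon junction. These are shown, with their position on mm9, because this complex held 1 of the members nearest to a genotype difference. They are printed 5′ to 3′ in lower case, with no base singled out.
Vps36, chr8:23317324-23318373 (+): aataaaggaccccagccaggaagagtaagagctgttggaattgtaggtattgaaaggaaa
Vps25, chr11:101117401-101118240 (+): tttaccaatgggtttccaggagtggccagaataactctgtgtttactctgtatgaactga
Snf8, chr11:95906602-95907638 (+): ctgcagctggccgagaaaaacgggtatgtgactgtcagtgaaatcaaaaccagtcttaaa
Vps36, whose product binds ubiquitin and membrane lipid, had log2 signals of 3.90 and 3.85 in USP8ff_CD4Cre, against 3.72 and 3.61 in USP8ff. The groups did not overlap, and the difference was 0.21 (-0.062 to 0.49; limma, unadjusted p = 0.10, adjusted p = 0.70). The other kept Vps36 probe gave 1.43 and 1.34 in USP8ff_CD4Cre, against 1.41 and 1.31 in USP8ff, which overlap, with a difference of 0.024, and the mean of both probes gave 0.12 (limma, unadjusted p = 0.32). Vps25, which recruits the first ESCRT-III subunit, had 0.21 and 0.21 in USP8ff_CD4Cre, against 0.55 and 0.12 in USP8ff. The higher USP8ff array alone gave the negative difference of -0.13 (-0.56 to 0.30; limma, unadjusted p = 0.48), and without it the difference was 0.086. Snf8, the remaining subunit, had 0.037 (-0.27 to 0.34).

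ESCRT-III is made of CHMP proteins that polymerise at the bud neck. Of its 10 listed genes 9 were measured, with 3 positive and 6 negative differences between -0.12 and 0.12 and 0 at an unadjusted p under 0.05. Chmp6, which starts the filament, had a difference of -0.091, and Chmp4b, its main building block, had 0.077 with groups that did not overlap. On the other kept Chmp4b probe (0.039) the groups overlapped. The subunits that cap the filament and draw in VPS4 had the smallest p-values of the complex. Chmp2b had 0.56 and 0.53 in USP8ff_CD4Cre, against 0.66 and 0.67 in USP8ff, which do not overlap (difference -0.12, -0.38 to 0.14; limma, unadjusted p = 0.30). Chmp2a had 2.86 and 2.89 in USP8ff_CD4Cre, against 2.75 and 2.78 in USP8ff, which also do not overlap, but in the other direction (0.12, -0.15 to 0.38; limma, unadjusted p = 0.31). The paralogues Chmp2a and Chmp2b thus had differences of opposite sign, and neither passed the test. Chmp3, their partner, had -0.0022 on its brighter probe.

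Chmp1a (-0.11) and Chmp1b (-0.065) encode late-acting subunits. The groups did not overlap for Chmp1a, but they overlapped on its other kept probe (-0.034) and for Chmp1b. Chmp5, a regulatory subunit that binds the VPS4 cofactor and that mouse thymocytes need to pass positive selection, had 3.95 and 3.88 in USP8ff_CD4Cre, against 3.96 and 4.06 in USP8ff. Both USP8ff_CD4Cre arrays lay below both USP8ff arrays, though 1 pair was almost level, and the difference was -0.094 (-0.37 to 0.19; limma, unadjusted p = 0.43). Chmp7, which also acts at the re-forming nuclear envelope, had 0.035. Chmp4c, a subunit of the abscission checkpoint in dividing cells, stayed below that mark in every sample, so no difference is given for it.

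VPS4 is the ATPase that removes and recycles ESCRT-III. Its paralogues Vps4b and Vps4a had differences of 0.097 and 0.079. Vps4b had 3.90 and 3.90 in USP8ff_CD4Cre, against 3.84 and 3.76 in USP8ff, without overlap (-0.17 to 0.36; limma, unadjusted p = 0.39). The other kept Vps4b probe gave 1.38 and 1.49 in USP8ff_CD4Cre, against 1.43 and 1.49 in USP8ff. These overlap, with a difference of -0.031, and the mean of both probes gave 0.033 (limma, unadjusted p = 0.76). Vps4a had -0.49 and -0.21 in USP8ff_CD4Cre, against -0.52 and -0.33 in USP8ff. The groups overlap, and the interval was -0.30 to 0.46 (limma, unadjusted p = 0.62). Vta1, the cofactor that stimulates VPS4, had -0.050 (-0.31 to 0.21) on its kept probe, with groups that did not overlap.

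ALIX, encoded by Pdcd6ip, and HD-PTP, encoded by Ptpn23, share a domain that binds CHMP4 and offer a route to ESCRT-III beside ESCRT-II. Ptpn23 had the fourth smallest p of the 30 members. Its signals were -1.20 and -1.05 in USP8ff_CD4Cre, against -1.39 and -1.30 in USP8ff. They did not overlap, and the difference was 0.22 (-0.076 to 0.51; limma, unadjusted p = 0.12, adjusted p = 0.70). With normexp background correction the Ptpn23 difference was 0.12 (limma, unadjusted p = 0.29). Pdcd6ip had -0.47 and -0.22 in USP8ff_CD4Cre, against -0.57 and -0.28 in USP8ff. Here replicate 2 was the higher array in both genotypes, the groups overlapped, and the difference was 0.084 (-0.32 to 0.48; limma, unadjusted p = 0.61). The Ptpn23 probe also crosses an exon junction.
Ptpn23, chr9:110288382-110288531 (-): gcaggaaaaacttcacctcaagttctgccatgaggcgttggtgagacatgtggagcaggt

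TOM1 proteins and TOLLIP bind ubiquitin and each other on endosomes and act beside ESCRT-0. Tom1 came closest to the unadjusted threshold after Gga2. Its signals were 0.060 and 0.18 in USP8ff_CD4Cre, against -0.20 and -0.079 in USP8ff. The groups did not overlap, and the difference was 0.26 (-0.034 to 0.55; limma, unadjusted p = 0.073, adjusted p = 0.69). Its relative Tom1l2 had 1.26 and 1.07 in USP8ff_CD4Cre, against 1.51 and 1.22 in USP8ff. These overlap, and the difference was -0.20 (-0.58 to 0.18; limma, unadjusted p = 0.23), the most negative of the 30 members. Tollip had 3.49 and 3.46 in USP8ff_CD4Cre, against 3.42 and 3.46 in USP8ff, which overlap, with a difference of 0.034 (-0.23 to 0.30; limma, unadjusted p = 0.75). Tom1l1, the family member that also binds Src-family kinases, was likewise unmeasured in every sample and gets no difference.

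GGA proteins are clathrin adaptors that sort cargo, such as mannose 6-phosphate receptors, from the trans-Golgi network toward endosomes. Gga2 had log2 signals of 0.68 and 0.90 in USP8ff_CD4Cre, against 0.35 and 0.40 in USP8ff. Both USP8ff_CD4Cre pools lay above both USP8ff pools. The difference was 0.41 (SE 0.12), a 1.33-fold higher level (95% interval 1.07 to 1.66; limma, unadjusted p = 0.020, adjusted p = 0.66 over all genes). The unadjusted call was lost without USP8ff_CD4Cre replicate 2 (difference 0.30; limma, unadjusted p = 0.13). It was also lost without USP8ff replicate 1 (0.39; limma, unadjusted p = 0.068) and without USP8ff replicate 2 (0.43; limma, unadjusted p = 0.0504). With no filter on dim probes the same difference had an unadjusted p of 0.077 in limma. The value came from a single probe (mm9, chromosome 7, 129132621 to 129132680), as the remaining Gga2 probe passed the background flag in no sample. Of its relatives, Gga1 had -0.013 (-0.28 to 0.25), and Gga3 had 3.62 and 3.67 in USP8ff_CD4Cre, against 3.65 and 3.79 in USP8ff, with -0.075 (-0.36 to 0.21; limma, unadjusted p = 0.53). Whether Gga2 differed from Gga1 or Gga3 in its response was not tested.

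The arrays were also compared by complex. Each gene was set against its own mean over the 4 arrays, and these values were averaged over a complex. Over all 30 members the averages were -0.0085 and 0.037 in USP8ff_CD4Cre, and -0.027 and -0.0012 in USP8ff. USP8ff replicate 2 lay between the USP8ff_CD4Cre arrays, so the groups overlapped. ESCRT-I had 0.024 and -0.0059 in USP8ff_CD4Cre, and -0.041 and 0.023 in USP8ff. ESCRT-II had -0.0033 and 0.045 in USP8ff_CD4Cre, and 0.073 and -0.11 in USP8ff. ESCRT-III had -0.042 and 0.015 in USP8ff_CD4Cre, and -0.0035 and 0.031 in USP8ff. In these 3 complexes the genotypes overlapped. The GGA genes had 0.0032 and 0.10 in USP8ff_CD4Cre, and -0.090 and -0.017 in USP8ff, without overlap, where Gga2 was the only positive difference among the 3 genes. VPS4 and its cofactor had -0.031 and 0.073 in USP8ff_CD4Cre, and -0.036 and -0.0056 in USP8ff. The TOM1 and TOLLIP genes had 0.031 and -0.0012 in USP8ff_CD4Cre, and 0.0061 and -0.036 in USP8ff. Both sets overlapped between the genotypes. For ALIX and HD-PTP the 2 USP8ff_CD4Cre arrays had -0.022 and 0.17, and the USP8ff arrays had -0.17 and 0.021, which overlap.

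**Figure D3:**
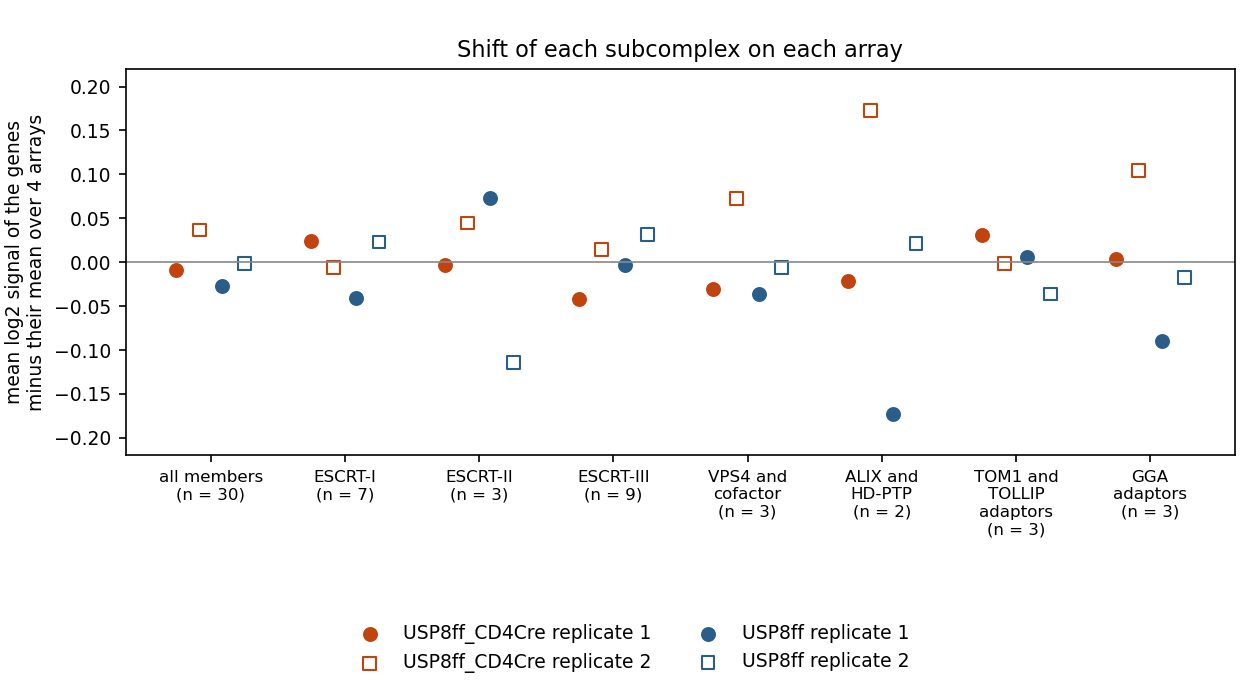
Mean log2 signal of the measured genes of each complex on each array, after each gene's mean over the 4 arrays was subtracted (n, number of genes). Orange symbols are USP8ff_CD4Cre and blue symbols USP8ff, with filled circles for replicate 1 and open squares for replicate 2. For all 30 members the 4 values lie between -0.027 and 0.037, and the widest spread, -0.17 to 0.17, is that of the pair of ALIX-family genes.

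Several members could be read more than once. Of the 59 probes 47 were kept, and 13 members had more than 1 kept probe. The kept probes had the same sign in 8 of these 13 and both signs in 5, which were Tsg101, Vps37a, Vps4b, Pdcd6ip and Tollip. Every kept probe of these 5 but 1 had a difference between -0.11 and 0.11. The exception was a dimmer Vps37a probe, with -1.45 and -1.57 in USP8ff_CD4Cre, against -1.36 and -1.11 in USP8ff, a difference of -0.28 (SE 0.14; limma over every kept probe, unadjusted p = 0.097). The brightest Vps37a probe, which crosses an exon junction, had the scattered USP8ff values given above.
Vps37a, chr8:41629288-41630337 (+): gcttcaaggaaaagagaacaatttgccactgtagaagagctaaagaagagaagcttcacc

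For a pair of ESCRT-III genes the dimmer probe lay further from 0 than the brighter one, and both dimmer probes cross exon junctions. The Chmp3 junction probe had -1.49 and -1.23 in USP8ff_CD4Cre, against -1.08 and -1.13 in USP8ff, a difference of -0.26 (SE 0.14; limma over every kept probe, unadjusted p = 0.11). The Chmp5 junction probe had 0.79 and 1.03 in USP8ff_CD4Cre, against 1.09 and 1.20 in USP8ff, a difference of -0.23 (SE 0.14; limma, unadjusted p = 0.14). In both, all USP8ff_CD4Cre arrays lay below all USP8ff arrays, and neither passed the test. Over the 47 kept probes, 1 had an unadjusted p under 0.05, the Gga2 probe, beside 6.67% of all 19038 kept probes.
Chmp3, chr6:71502450-71510946 (+): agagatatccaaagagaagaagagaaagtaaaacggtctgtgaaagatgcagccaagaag
Chmp5, chr4:40899469-40900048 (+): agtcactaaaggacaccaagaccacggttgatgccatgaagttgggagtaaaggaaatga

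**Figure D4:**
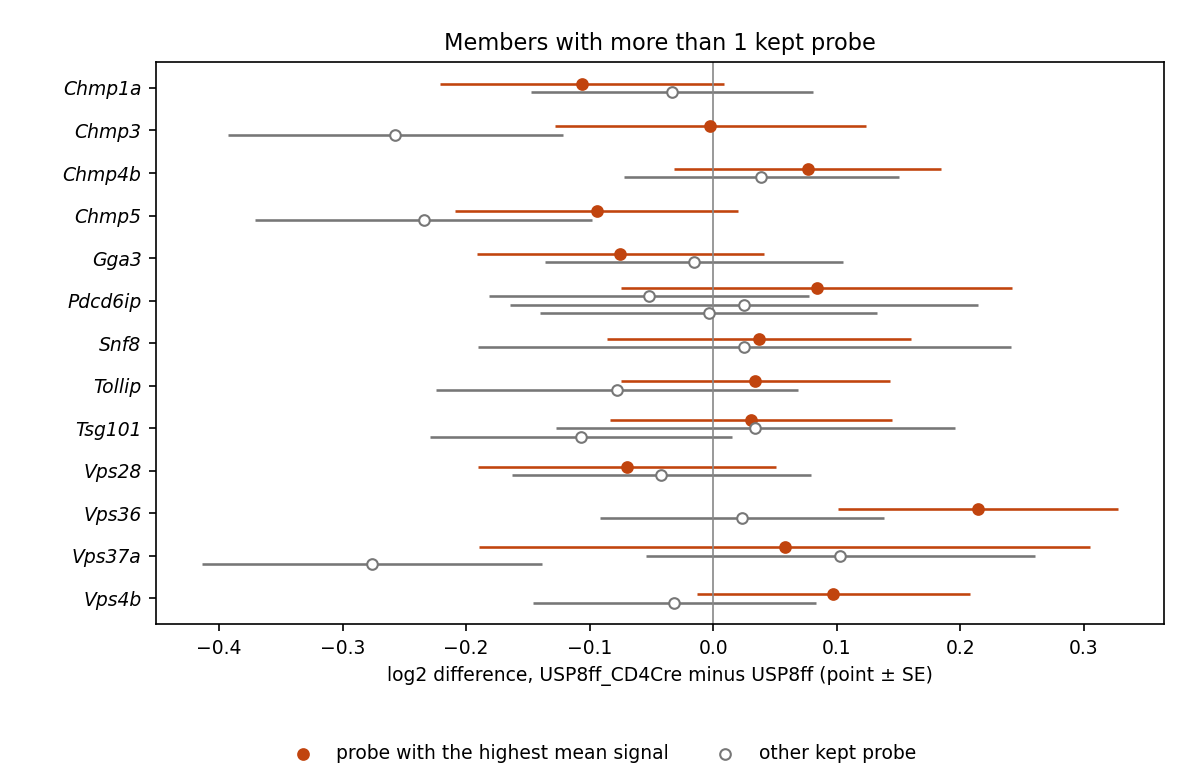
Log2 difference, USP8ff_CD4Cre minus USP8ff, of each kept probe (point, with its SE as a bar) for the 13 members with more than 1. Orange points are the brightest probe, which stands for the gene elsewhere, and open grey points are the others. The grey points of Chmp3 and Chmp5 and 1 grey point of Vps37a lie furthest left, between -0.28 and -0.23. The other grey point of Vps37a lies at 0.10, and the orange point of Vps36 lies furthest right, at 0.21.

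The 12 probes that were not kept add little. Of these, 8 passed the background flag in no sample. A second Vta1 probe had -6.34 and -6.78 in USP8ff_CD4Cre, against -5.22 and -3.76 in USP8ff, but it was well above background on USP8ff replicate 2 alone, so it gives no fold between the genotypes. A Tom1l2 probe was likewise above background on that array alone.

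Other genes of the pathway, written down as a list of 30 that includes Usp8, were all measured. At an unadjusted p under 0.05 in limma 1 was lower (Usp8) and 1 higher (Cep55), beside 3.46% lower and 3.97% higher over all genes, and 0 passed an adjusted p of 0.05. The median difference was 0.019. The ESCRT-0 genes, whose products bind USP8 directly or through STAM, had differences of 0.076 for Hgs, 0.00067 for Stam and -0.058 for Stam2. Their groups overlapped. Hgs had 1.09 and 1.20 in USP8ff_CD4Cre, against 1.03 and 1.10 in USP8ff. Cep55, which brings ALIX and TSG101 to the midbody of dividing cells, had 1.38 and 1.78 in USP8ff_CD4Cre, against 1.17 and 0.89 in USP8ff. These did not overlap, and the difference was 0.55 (SE 0.18; limma, unadjusted p = 0.029, adjusted p = 0.66). The clathrin light chain genes Clta and Cltb came next, with 0.20 (limma, unadjusted p = 0.14) and 0.27 (limma, unadjusted p = 0.17). Apart from Usp8 and Cep55 the list ranged from -0.15 to 0.27.

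For the same 2 genotypes, the authors' deposited table lists 78 probes, and its smallest absolute fold is 2.002. None of the 59 member probes and no Usp8 probe appears in the authors' deposited table. Here the measured member with the largest difference, Gga2, had a fold of 1.33 and Usp8 had 0.57, both short of a 2-fold change. A list that starts at 2.002 cannot show whether such smaller differences were present.

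The sort and the arrays were checked as far as they touch these values. Between 45.0% and 48.9% of probes were well above background on an array, no spot was saturated, no member spot was an outlier, and signals correlated at 0.991 to 0.996 between arrays across genes. The highest correlation was across genotypes, 0.9959 between the replicate 1 arrays. It was 0.995 between the USP8ff_CD4Cre arrays and 0.9931 between the USP8ff arrays, and the remaining pairs across genotypes lay between 0.9913 and 0.9933. All 10 DP thymocyte markers (Cd4, Cd8a, Cd8b1 and Rag1 among them) were measured on all 4 arrays, with summed signals, in multiples of the 75th percentile, of 1746 and 1767 in USP8ff_CD4Cre and 1660 and 1736 in USP8ff. These sums are carried by the brightest probes, Dntt and Cd8b1, which are among the 3 markers with a positive difference, while 7 were negative and the median was -0.058. Of these 10 markers, Rag2 had an unadjusted p under 0.05 (difference -0.33). Of the markers of other cells, 4 of 9 on the array for macrophages and dendritic cells were measured, all with negative differences (Ctss -1.96 and Mpeg1 -1.09 at an unadjusted p under 0.05), and their summed signals were 1.19 and 1.49 in USP8ff_CD4Cre and 2.11 and 2.40 in USP8ff, with Adgre1 and C1qa above the background flag in no sample. For NK and innate cells 4 of 8 were measured, 3 of them negative (Il2rb -2.02, Nkg7 -2.09 and Prf1 -0.86, at an unadjusted p under 0.05). The fourth, Gzma, had log2 signals of 1.59 and 2.12 in USP8ff_CD4Cre and 1.53 and 1.35 in USP8ff, a difference of 0.42 that did not pass. Its bright probe makes up most of the summed signals of 3.37 and 4.74 in USP8ff_CD4Cre and 3.77 and 3.87 in USP8ff. Eomes, Klrb1c and Ncr1 passed that flag in no sample. For B cells Blnk and Cd79b were measured (sums 5.17 to 6.09 in USP8ff_CD4Cre and 6.16 to 6.62 in USP8ff), and Cd79a and Ms4a1 in no sample. For thymic stroma 3 of 7 were measured (sums 1.02 to 1.06 in USP8ff_CD4Cre and 1.15 to 1.17 in USP8ff), 2 with negative differences and 1 with a positive one. Epcam had -0.47, at an unadjusted p under 0.05. Pecam1 had -0.10 and Krt5 had 0.22, and neither passed. Col1a1, Foxn1 and Pdgfra were above the background flag in no sample. The erythroid marker Hba-a2 had log2 signals of -3.21 and -1.58 in USP8ff_CD4Cre and -3.24 and -3.18 in USP8ff, and Alas2 was measured in no sample. The part of these cells in the difference of Gga2 was not tested.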

How the data were processed

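From each sample 500 ng of RNA went into Cy3 labelling for a 1-colour Agilent array, per the labels. The 4 arrays shared a slide, and their software was Feature Extraction 10.7.3.1, with probe positions on mm9, per the file headers. The intensities used are the deposited processed signals of each spot, background-subtracted within an array but not yet brought to a common scale. From the authors' deposited table of a genotype comparison only the absolute fold, a ratio, and the probe names were used, not its p-value, and how it was tested is not stated. Another table was left unused, because its 4 per-sample columns match no label.

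Signals were taken as log2 and the 75th percentile of an array's 43379 non-control spots was subtracted. Spots marked as outliers were dropped, which left 17 of 41174 probes without a value in some sample, and repeated spots were averaged. The filter kept 19038 probes that passed the software's background flag in both samples of either genotype. A gene took the brightest of its kept probes, for 13062 genes. Members were matched by the files' gene names, and a RefSeq table matched 26690 probes to a gene name by accession. How many names this changed was not counted. The comparison used limma 3.58.1 (R 4.3.3) without covariates and with variances moderated over all genes (eBayes), adjusted by Benjamini-Hochberg over all genes. It was first tested on simulated data. Printed sequences are the files' own probe sequences, for probes that cross exon junctions.

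The members and lists were chosen with earlier results of these data known. Values per array are given for members under an unadjusted p of 0.05, the 2 smallest p-values of each complex, and members whose probes differ in sign. Chmp5 and single probes of Vps36, Chmp1a, Chmp3, Chmp4b and Vta1 were singled out after their values were seen. The titles number the replicates but tie no number to a litter or day. The 14 alternatives changed the scaling (quantile or median), the background (normexp, offset 50), the probe filter (none, or all 4 arrays), the probes per gene (their mean, or each alone), the model (replicate block, eBayes trend) and the outlier spots, or left out 1 array. Some markers of other cells are not reported here. Plots were made in matplotlib 3.10.9 under Python 3.11.15.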

Additional observations from a re-analysis of the deposited data

How the results depend on the processing

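Under all 14 alternatives 0 genes passed an adjusted p of 0.05, Usp8 stayed lower (-0.92 to -0.66), and every measured member kept a 95% interval inside a 2-fold change. The replicate numbers pair no samples by the labels. The correlation across genes of deviations from the genotype mean was 0.32 between same-numbered arrays. With 2 arrays per genotype the deviations mirror each other, so both pairs must give this same value. With a replicate block the count of genes at an unadjusted p under 0.05 was 1338, against 970 without, and Gga2 stayed the 1 member called (unadjusted p = 0.017). The count of genes ranged from 396 to 1229 with 1 array left out, the lowest without USP8ff_CD4Cre replicate 2. The count of members called was 0 with no filter and ranged from 0 to 1 with 1 array left out.

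The median difference of the members changed sign easily. It was -0.010 with quantile normalization, -0.014 with the mean of probes and -0.0022 over every kept probe, and it ranged from -0.036 to 0.058 with 1 array left out. Of 420 single-member values 391 kept their direction and their side of the unadjusted threshold, 24 changed sign, 4 lost the threshold (Gga2 each time) and 1 passed it (Vps37a). Quantile normalization turned Vps37c (0.030), Snf8 (-0.014), Chmp7 (-0.049) and Tollip (-0.011), normexp turned Snf8 (-0.0033), and the mean of probes turned Tsg101 (-0.014), Vps37a (-0.039) and Tollip (-0.022). With 1 array left out, the differences that changed sign ranged over -0.022 to 0.083 for Tsg101, -0.31 to 0.42 for Vps37a, -0.091 to 0.087 for Vps37c, -0.34 to 0.086 for Vps25, -0.059 to 0.13 for Snf8, -0.27 to 0.092 for Chmp6, -0.087 to 0.16 for Chmp7, -0.096 to 0.092 for Chmp3, -0.062 to 0.22 for Vps4a, -0.062 to 0.23 for Pdcd6ip and -0.034 to 0.0075 for Gga1. The cause of these changes was not tested. The bounds of the members' intervals reached from -0.80 to 0.94 over these alternatives, which include fits with 1 array in a genotype, against -0.58 to 0.73 with all 4 arrays.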
